A study of Mus musculus with 22 samples.

Results

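The comparison described here was between pancreatic islets of mice heterozygous for the S64F change in the transcription factor MAFA (Het) and islets of wild-type mice (WT), both on the background that the labels call C57. It covers 11 of the 22 samples of the series, 5 WT and 6 Het, taken by the genotype and background in their labels. The other 11 samples hold the same 2 genotypes, 5 WT and 6 Het, on a background labelled Mixed. All mice were males aged 5.5 weeks, and every library of polyadenylated RNA came from the isolated islets of 1 mouse. The labels name no treatment and no other allele, and how the S64F allele was made and which litters the mice came from are not given in the sources used here. Library numbers in the labels run group by group, so library order and genotype cannot be told apart.

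MAFA is a basic leucine zipper protein made in the adult rodent pancreas mainly by beta cells, the cells that produce insulin. It binds MAF recognition elements in the insulin promoter and in other genes of glucose-stimulated insulin secretion. Serine 64 lies in the transactivating region of MAFA, whose phosphorylation sets how long the protein lasts, and in people the S64F change has been found in families with diabetes and with insulin-producing tumours.

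The first sequence shown is the site that separates the genotypes, and the other sequences are the promoters of the gene with the largest increase and the gene with the largest decrease among those named here. The site is at chr15:75747710-75747754 on the minus strand of GRCm38, in the only exon of Mafa, in the coding part for a protein of 359 residues. It is the reference sequence, with codon 64 (TCT, serine) in capitals. Gene-level values do not separate the alleles, so every Mafa value below is the sum of the S64F and the WT transcript. The promoters run from 250 bases before to 50 bases after the start of the gene in RefSeq, build GRCm38.p6, Meltf at chr16:31878560-31878859 on the plus strand and Pdyn at chr2:129699889-129700188 on the minus strand. Capitals mark TGCTGA or its reverse complement TCAGCA, the core of the MAF recognition element, searched on both strands.
Mafa codon 64: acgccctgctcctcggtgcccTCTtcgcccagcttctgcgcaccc
Meltf promoter: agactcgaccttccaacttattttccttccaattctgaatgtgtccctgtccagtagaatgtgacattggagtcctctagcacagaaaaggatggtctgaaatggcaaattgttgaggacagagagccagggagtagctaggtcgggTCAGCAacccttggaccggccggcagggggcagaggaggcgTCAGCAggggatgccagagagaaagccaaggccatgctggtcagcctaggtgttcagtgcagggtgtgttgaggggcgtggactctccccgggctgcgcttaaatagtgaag
Pdyn promoter: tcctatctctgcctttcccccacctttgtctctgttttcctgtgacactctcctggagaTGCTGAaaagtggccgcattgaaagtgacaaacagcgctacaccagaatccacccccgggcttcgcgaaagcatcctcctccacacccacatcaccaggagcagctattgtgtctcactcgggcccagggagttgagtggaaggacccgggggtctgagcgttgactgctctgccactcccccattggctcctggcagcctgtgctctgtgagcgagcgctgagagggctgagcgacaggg
The Meltf promoter holds 2 matches, which start 103 and 62 bases before the start site, and the Pdyn promoter holds 1, which starts 191 bases before it. The same 6 letters occurred in 19.1% of the 27025 promoters in the table and in 14.9% of the 11074 promoters of genes tested. They occurred in 13.9% of the 3423 promoters of genes called higher and in 15.9% of the 1081 of genes called lower. Among changes of at least 1 on the log2 scale the shares were 18.1% of 182 promoters of genes that rose and 20.2% of 99 of genes that fell. No test of these shares was made. These matches describe the letters in the window and are not measured binding sites.

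Values are TPM, transcript abundances scaled to the same total in each library, and differences are Het minus WT on the log2(TPM + 1) scale from limma, with a standard error (SE). A gene was called where its Benjamini-Hochberg adjusted p over all 16756 genes tested was under 0.05. Between 14812 and 16133 genes reached 1 TPM in a library, and the depth of the libraries is unknown. WT replicates 1 and 5 stood apart from the other libraries. Mitochondrially encoded protein transcripts took 7.71% and 9.23% of all TPM in them, against 3.98% to 5.57% in the other WT libraries and 3.65% to 4.13% in Het. Where a named call was lost without these libraries, or a called change shrank over 1.5 times, the value without them is given. Leaving both out was not fixed in advance, and it also leaves fewer WT libraries. A lost call can therefore go with a change of the same size, as for Rab3b (-0.43 with and without them). It can also go with a smaller one, as for Idi1 (0.49 with them and 0.11 without). Pearson correlations across genes were 0.950 to 0.986 within WT, 0.977 to 0.990 within Het and 0.921 to 0.977 between the groups.

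Mafa itself fell. Its mRNA stood at 362, 571, 375, 409 and 487 TPM in the WT libraries, and between 93.8 and 152 TPM, with a median of 108, in Het. Every Het library lay below every WT library. Het libraries averaged 117 ± 23.2 TPM (SD, n = 6) against 441 ± 87.6 TPM (n = 5) in WT, a change of -1.91 (SE 0.18) on the log2 scale (limma, adjusted p = 1.14e-07). The exact two-sided permutation test over the 462 ways of dividing the 11 libraries gave p = 0.00216, the smallest that this design allows. Mlxipl, which encodes the glucose-responsive factor ChREBP, was 544, 315, 381, 510 and 349 TPM in WT and between 92.1 and 154 TPM, with a median of 110, in Het, also without overlap (-1.85, SE 0.15, adjusted p = 1.60e-08).

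The groups did not overlap for 3511 of the genes tested (21.0%), 2666 of them higher (15.9%) and 845 lower (5.04%) in Het.

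Among the 26 tested of 28 listed transcription factors of islets, 4 rose and 7 fell, with a median change of -0.01. Over all genes tested, 26.4% rose and 11.6% fell, with a median of 0.08, and the counts of every list stand against these shares. With median-of-ratios scaling the shares over all genes were 21.0% and 18.3%, with the total without abundant genes 19% each, and without WT replicates 1 and 5 they were 15.5% and 5.61%. With median-of-ratios scaling the split for this list was 3 and 11. Mnx1, a homeobox factor that holds beta-cell identity, fell by 0.55 (SE 0.16, adjusted p = 0.0112), and the endocrine factor Rfx6 fell by 0.34 (adjusted p = 0.0473). Rfx6 was at -0.29 (adjusted p = 0.12) without WT replicates 1 and 5. The repressor Bach2 rose from 0.435 ± 0.0693 TPM to 1.84 ± 0.581 TPM (0.96, SE 0.14). Another 3 central factors of beta cells had smaller differences that were not called. Pdx1 was 135 ± 25.3 TPM in WT and 106 ± 20.1 in Het (-0.34, adjusted p = 0.0831), Nkx6-1 was 494 ± 30.7 and 432 ± 39.8 TPM (-0.20, adjusted p = 0.0893) and Neurod1 was 227 ± 22.1 and 219 ± 34.9 TPM (-0.07, adjusted p = 0.692). Pdx1 was called lower without WT replicates 1 and 5 (-0.53, adjusted p = 0.0302). With median-of-ratios scaling both Pdx1 (-0.43, adjusted p = 0.0228) and Nkx6-1 (-0.29, adjusted p = 0.0217) were called lower. Glis3, a zinc finger factor whose mutations cause diabetes in people, was called higher at 0.48, but stood at 0.20 (adjusted p = 0.289) without WT replicates 1 and 5. With a per-library score of acinar (digestive-enzyme) markers as a covariate, Mnx1 was at -0.57 (adjusted p = 0.0537) and Rfx6 at -0.25 (adjusted p = 0.289).

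In all, 6362 genes (38.0% of 16756) were called, 4422 higher and 1940 lower in Het. The split depends on the scaling. Median-of-ratios scaling gave 3521 higher and 3063 lower, and a total without the 13 most abundant genes gave 3192 and 3183. Without WT replicates 1 and 5, 3532 genes were called, and 3383 of the 6362 kept their call and direction. A change of at least 1 on the log2 scale was called for 550 genes (3.28%), 261 higher (1.56%) and 289 lower (1.72%). Of these 550, 478 (86.9%) kept their call and direction without those 2 libraries.

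**Figure D1:**
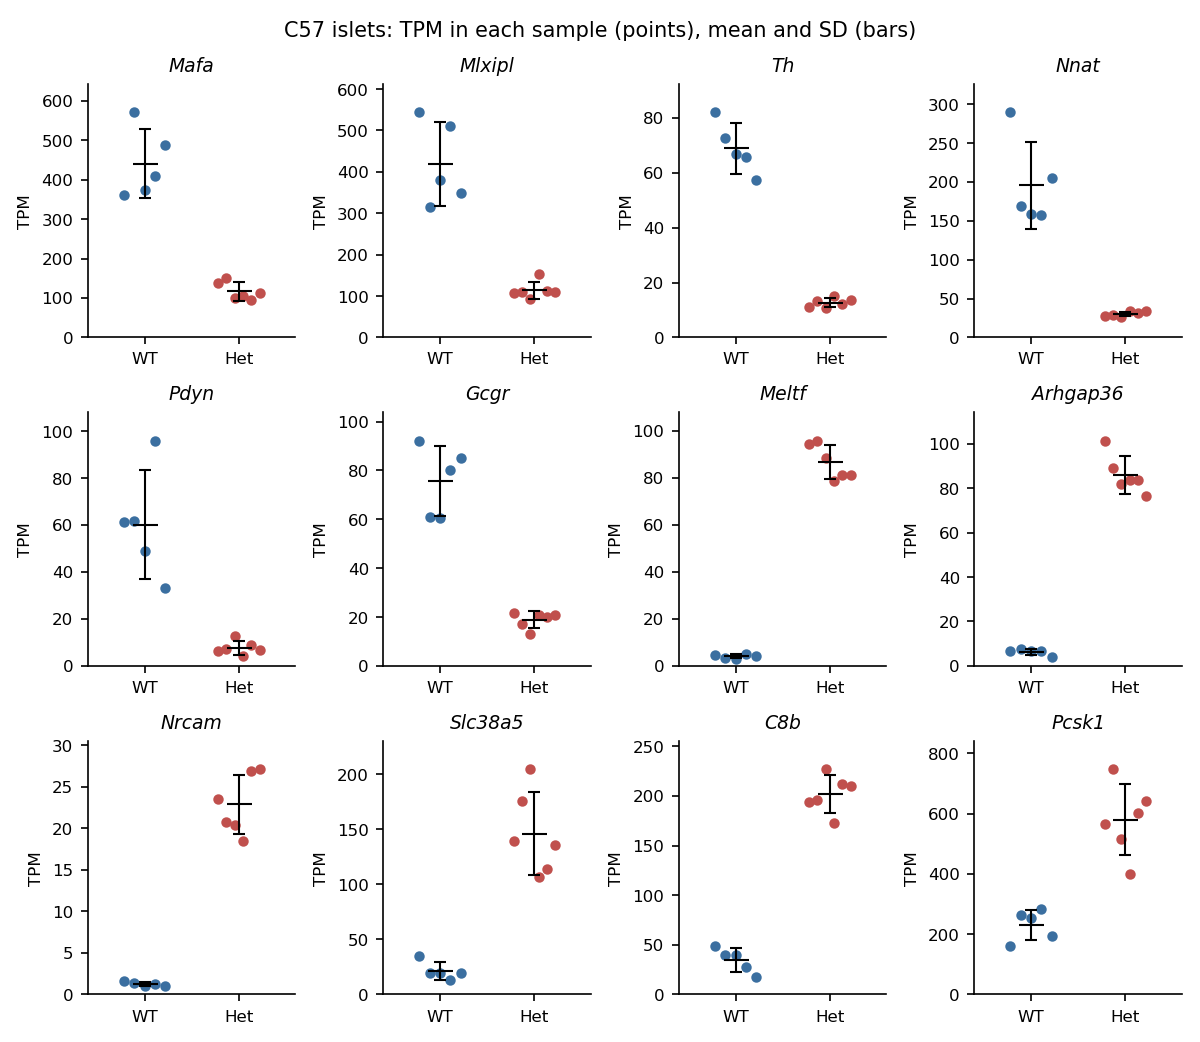
TPM (vertical axis, from 0) of 12 genes in each C57 library, with WT in blue (n = 5) and Het in red (n = 6); points are libraries in replicate order, and black bars are the mean and SD. The WT and Het points do not overlap in the 12 panels, which for all but Pcsk1 the choice of genes required, with Mafa at 362 to 571 TPM in WT and 93.8 to 152 TPM in Het.

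The 28 genes named for the size of their change were chosen among genes whose groups do not overlap, so their separation is a description. Among them the largest increase on the log2(TPM + 1) scale was in Meltf, which encodes the membrane-anchored iron-binding protein melanotransferrin. It was 4.75, 3.45, 3.13, 4.91 and 4.14 TPM in WT and between 78.6 and 95.8 TPM, with a median of 84.9, in Het. All Het libraries were far above all WT libraries, with a difference of 4.12 (SE 0.16, adjusted p = 2.45e-13). Its promoter is the one shown above with 2 matches to the MAF core. Angptl7, a secreted angiopoietin-like protein, was 2.01, 4.9, 2.51, 3.63 and 3.24 TPM in WT and between 34.8 and 68.0 TPM, with a median of 52.2, in Het (3.60, SE 0.48, adjusted p = 8.98e-06). Arhgap36, a relative of the GTPase-activating proteins, was 6.74, 7.57, 6.65, 6.74 and 4.10 TPM in WT and between 76.4 and 101 TPM, with a median of 83.7, in Het (3.58, SE 0.27, adjusted p = 5.77e-09). Neither gene overlapped between the groups.

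The cell adhesion molecule Nrcam was 1.62, 1.40, 1.06, 1.29 and 1.04 TPM in WT and between 18.5 and 27.1 TPM, with a median of 22.1, in Het (3.38, SE 0.15, adjusted p = 1.01e-12). Chrna4, a subunit of the nicotinic acetylcholine receptor, was between 0.124 and 0.652 TPM in WT and between 7.44 and 12.4 TPM in Het. Its change was 3.03 (SE 0.23) and became 4.69 with a pseudocount of 0.1 in place of 1. With that pseudocount Chrna4 and Ccdc141 (4.44) were above Meltf (4.39). Synpr, a synaptic vesicle membrane protein, went from 3.14 ± 1.17 to 20.7 ± 3.98 TPM, and Kcna2, a voltage-gated potassium channel, from 2.0 ± 0.707 to 13.9 ± 5.0 TPM. Ccdc141, a coiled-coil protein tied to neuronal migration, went from 0.680 ± 0.179 to 17.0 ± 4.74 TPM.

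The other named increases covered a mixed set. The amino acid transporter Slc38a5 was 34.8, 19.5, 19.4, 13.5 and 19.7 TPM in WT and between 107 and 204 TPM, with a median of 138, in Het (2.74, SE 0.21). C8b, a chain of the terminal complement complex, was 49.2, 39.7, 40.2, 28.1 and 17.5 TPM in WT and between 172 and 227 TPM, with a median of 203, in Het (2.57, SE 0.25). Both genes were separate between the groups. The small heat-shock protein Hspb8 went from 13.5 ± 0.892 to 79.0 ± 7.82 TPM, the Ras-like GTPase Rasl10b from 1.24 ± 0.0804 to 12.3 ± 2.89 TPM, the carcinoembryonic antigen relative Ceacam10 from 1.78 ± 1.81 to 22.4 ± 6.82 TPM, and the membrane protein Lsmem1 from 1.15 ± 0.845 to 11.9 ± 1.42 TPM.

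Among decreases, Pdyn, the precursor of dynorphin peptides, had the largest change. It was 61.2, 61.8, 48.8, 95.9 and 33.0 TPM in WT and between 4.02 and 12.6 TPM, with a median of 6.99, in Het (-2.80, SE 0.39, adjusted p = 1.65e-05). Nnat, an imprinted gene for a small membrane protein of the endoplasmic reticulum, was 290, 169, 158, 158 and 205 TPM in WT and between 26.4 and 33.5 TPM, with a median of 30, in Het (-2.62, SE 0.17, adjusted p = 7.97e-10). Neither overlapped between groups, and for Nnat the highest WT library was replicate 1. Th, which makes the dopamine precursor L-DOPA, was 82.1, 72.6, 66.7, 65.8 and 57.2 TPM in WT and between 10.8 and 15.1 TPM, with a median of 12.7, in Het (-2.35, SE 0.20, adjusted p = 3.39e-08). Gcgr, the glucagon receptor, was 92.2, 60.8, 60.7, 80.1 and 85.0 TPM in WT and between 12.9 and 21.8 TPM, with a median of 20.5, in Het (-1.94, SE 0.18, adjusted p = 6.16e-08).

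Rgs16, which shortens signalling by G proteins, fell from 164 ± 82.6 to 27.5 ± 4.69 TPM, and its WT values were highest in replicates 1 and 5, at 288 and 209 TPM. Msln, the membrane-anchored protein mesothelin, fell from 170 ± 60.0 to 31.8 ± 10.4 TPM, with 275 TPM in WT replicate 1. The other named decreases were the neurexin relative Cntnap2 (8.65 ± 1.53 to 1.14 ± 0.249 TPM), the membrane protease Tmprss4 (50.5 ± 4.53 to 10.9 ± 1.76 TPM), the inward-rectifier potassium channel Kcnj12 (7.80 ± 2.88 to 1.23 ± 0.455 TPM) and the brain-type creatine kinase Ckb (77.9 ± 14.8 to 20.6 ± 2.22 TPM). The calcium-binding protein S100z (12.5 ± 3.48 to 3.17 ± 1.09 TPM) and the nucleoside transporter Slc28a2b (5.56 ± 1.65 to 1.03 ± 0.125 TPM) also fell. Without WT replicates 1 and 5, all 28 of these genes, Mafa and Mlxipl included, kept their call. With a pseudocount of 0.1, S100z was no longer called (-1.95, adjusted p = 0.11).

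**Figure D2:**
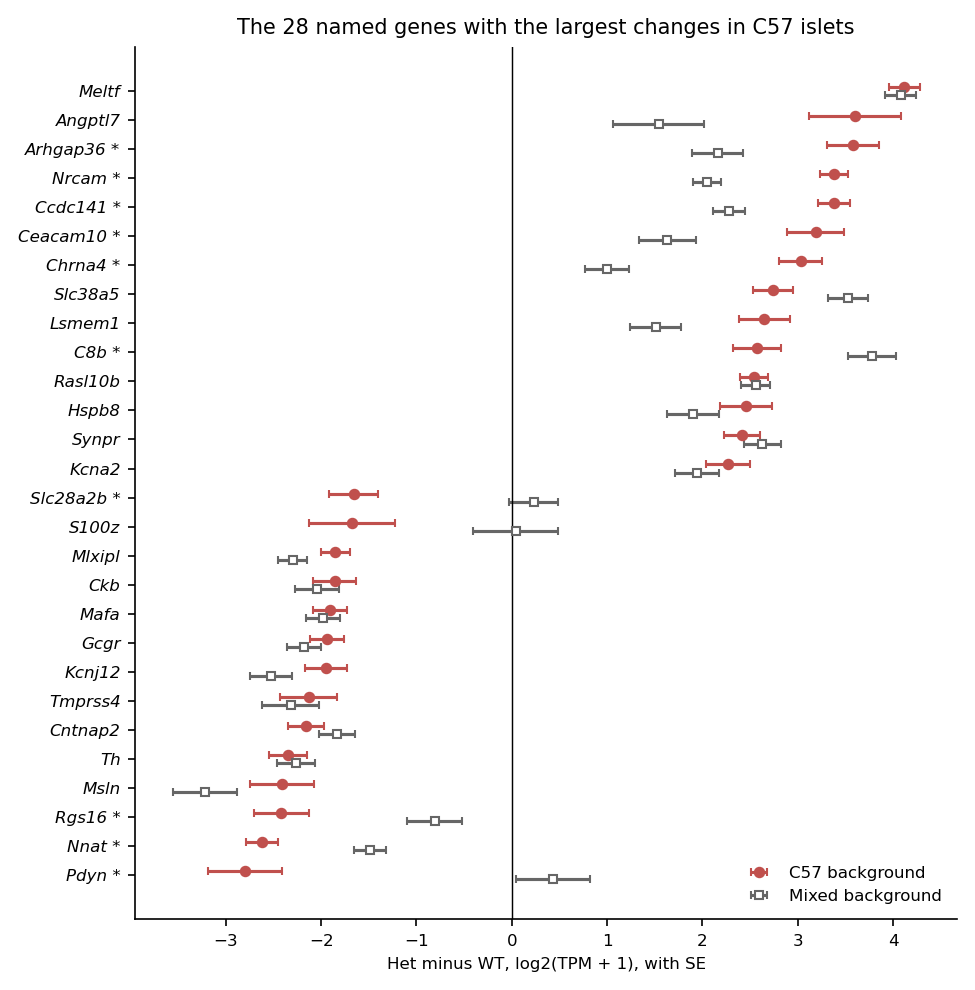
Het minus WT on the log2(TPM + 1) scale (horizontal axis) with SE for the 28 genes with the largest named changes in C57 islets; red circles are C57 and open grey squares are the same contrast on the Mixed background, and an asterisk marks an adjusted p under 0.05 for the difference between backgrounds. The C57 changes run from 4.12 for Meltf to -2.80 for Pdyn, and 10 of the 28 genes carry an asterisk.

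The transcripts of the islet hormones shifted against each other. Ins1 and Ins2 together took 34.6%, 39.7%, 39.9%, 40.8% and 41.7% of all TPM in WT and between 28.5% and 34.5% in Het, with a median of 31.9%. The groups did not overlap, though the lowest WT library, replicate 1, and the highest Het library were only just apart. The mean fell from 39.3% ± 2.76 to 31.6% ± 2.28 (exact two-sided permutation p = 0.00216, adjusted p = 0.00433 over 6 transcript classes). Gcg, the glucagon gene, took 5.28%, 4.55%, 3.90%, 2.19% and 1.73% in WT and between 6.58% and 10.9% in Het, with a median of 8.30% and no overlap (exact p = 0.00216, adjusted p = 0.00433). Sst, the somatostatin gene, rose from 0.716% ± 0.126 to 1.13% ± 0.151, also without overlap and with the same p. In whole islets, fewer cells of a type and less RNA per cell cannot be told apart. Since TPM is a share of a total, the fall in insulin and the rise of other transcripts are also not independent of each other.

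On the log2 scale the fall in insulin RNA was larger in Ins1, the insulin gene found in rodents beside Ins2. Ins1 was 125412, 132675, 133379, 136274 and 136537 TPM in WT and between 76496 and 95933 TPM, with a median of 87510, in Het (-0.61, SE 0.16, adjusted p = 0.00589). It was not called with median-of-ratios scaling (-0.70, adjusted p = 0.0676) or quantile normalization (-0.52, adjusted p = 0.156). Ins2 was 260458 ± 23190 TPM in WT and 228129 ± 17727 in Het (-0.19, SE 0.21, adjusted p = 0.497). Ins1 was separate between the groups, and Ins2 overlapped only through WT replicate 1, at 220530 TPM. The other WT libraries held 264176 to 280275 TPM of Ins2, and the highest Het library 249016 TPM. Without WT replicates 1 and 5 the Ins2 change was -0.23 (adjusted p = 0.582). The ratio of Ins1 to Ins2, a quantity chosen after the values were seen, was 0.569, 0.502, 0.502, 0.502 and 0.487 in WT and between 0.351 and 0.435, with a median of 0.375, in Het (exact two-sided permutation p = 0.00216). Iapp, the gene of amylin, was 31425 ± 6660 TPM in WT and 30398 ± 4936 in Het (-0.03, adjusted p = 0.899).

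Among the 17 genes for insulin, granins and prohormone processing, 9 rose and 2 fell, with a median change of 0.52. Pcsk1, the convertase that cuts proinsulin, was 162, 263, 253, 283 and 195 TPM in WT and between 399 and 748 TPM, with a median of 585, in Het, with no overlap (1.33, SE 0.14, adjusted p = 4.37e-07). Pcsk2, which cuts proinsulin and proglucagon, rose from 1013 ± 121 to 1530 ± 85.8 TPM (0.60, SE 0.09), and Pam, the amidating enzyme, from 91.8 ± 14.5 to 176 ± 13.9 TPM (0.94, SE 0.12). The granin-family genes Scg2 and Vgf rose by 0.90 and 0.84, and Vgf was at 0.85 (adjusted p = 0.0649) with the acinar score. Scg2 was at 0.58 (adjusted p = 0.0898) without WT replicates 1 and 5. The genes that fell were Ins1 and Prss53, a serine protease, at 87.9 ± 18.5 and 44.8 ± 3.72 TPM (-0.94, SE 0.11).

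Of the 18 listed genes linked to Mafa in beta cells, 6 rose and 3 fell, with a median of 0.01, against 26.4% and 11.6% over all genes. With median-of-ratios scaling 5 rose and 4 fell, and with the total without abundant genes 5 rose and 6 fell. The fallers were Ins1, the GLP-1 receptor Glp1r, and Pcx, the pyruvate carboxylase of anaplerosis (81.5 ± 8.09 to 60.2 ± 4.69 TPM, -0.43, SE 0.10). Ccnd2, a cyclin of beta-cell division, rose from 207 ± 21.2 to 358 ± 34.5 TPM (0.79), and the monoamine oxidases Maob and Maoa rose by 0.60 and 0.41, and Maoa was at 0.36 (adjusted p = 0.0507) with the acinar score. G6pc2, a glucose-6-phosphatase of the islet, was called at 0.38 (adjusted p = 0.0459) but was at 0.10 (adjusted p = 0.658) without WT replicates 1 and 5. The 3 other markers of maturity given here were not called. Slc2a2, the glucose transporter GLUT2, was 307, 354, 351, 346 and 272 TPM in WT and between 313 and 368 TPM in Het (0.09, adjusted p = 0.605), its groups overlapping. Ucn3, the peptide urocortin 3, was 711 ± 79.6 TPM in WT and 568 ± 55.4 in Het (-0.32, adjusted p = 0.0952), and Slc30a8, the zinc transporter of insulin granules, was 1176 ± 310 and 1325 ± 161 TPM (0.21, adjusted p = 0.254). Ucn3 was called lower when the 13 most abundant genes were left out of the total (-0.43, adjusted p = 0.0345).

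All 9 alpha-cell markers were called higher, with a median change of 0.99. Their summed TPM was 19245 to 57847 in WT and 71903 to 117909 in Het. The vitamin D-binding protein gene Gc rose from 87.2 ± 20.8 to 209 ± 30.5 TPM (1.27, SE 0.16), and Ttr, the gene of transthyretin, from 2887 ± 1037 to 5977 ± 984 TPM (1.11, SE 0.19). Of 6 delta-cell markers 5 rose, with a median of 0.80, among them the delta-cell factor Hhex (0.91) and the retinol carrier Rbp4 (0.88). Of 3 tested gamma-cell markers 1 was called, the tetraspanin Tspan8 (0.68), which was at 0.50 (adjusted p = 0.174) without WT replicates 1 and 5. Ppy, pancreatic polypeptide, was 15013 ± 2789 TPM in WT and 18927 ± 5576 in Het (0.31, adjusted p = 0.42). Of 12 beta-cell markers 1 rose and 2 fell, with a median of -0.19, against 26.4%, 11.6% and 0.08 over all genes. For 3 of the 12 every Het library lay below every WT library, against 5.04% of all genes. With median-of-ratios scaling and with quantile normalization 0 rose and 4 fell, and with the total without abundant genes 0 rose and 6 fell. Without WT replicates 1 and 5, all 9 alpha and 5 delta markers were still called higher.

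**Figure D3:**
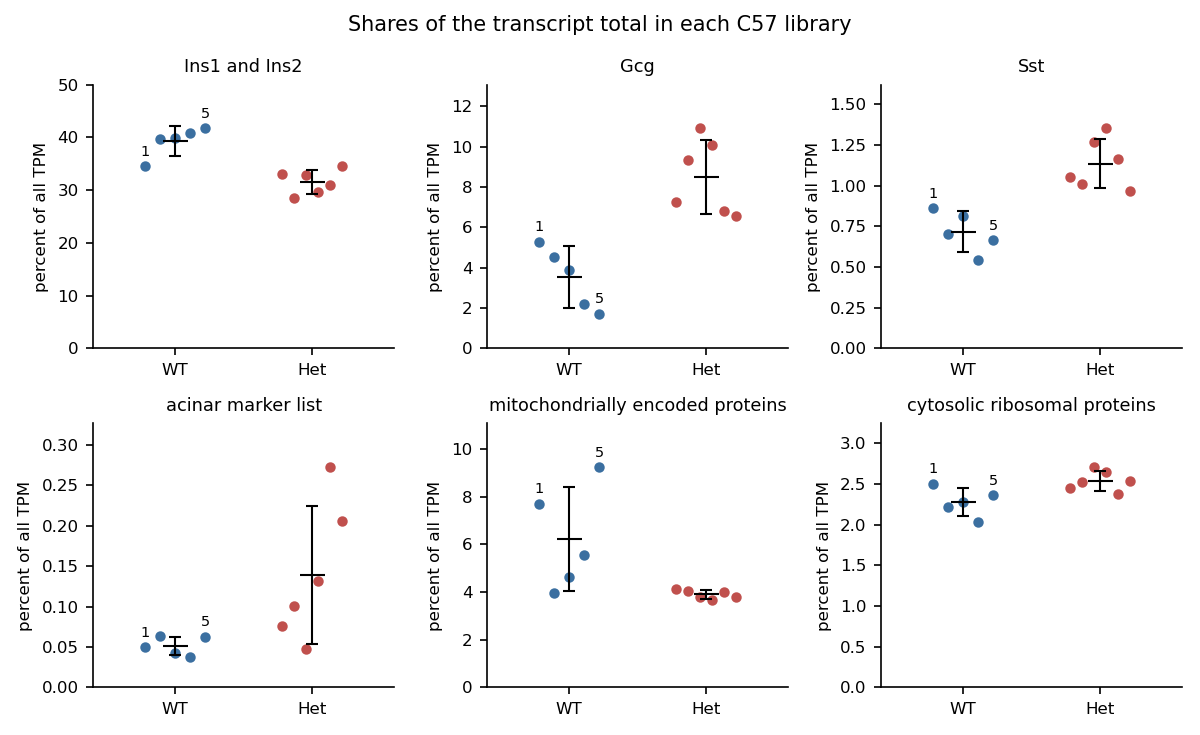
Percent of all TPM (vertical axis, from 0) taken by 6 transcript classes in each C57 library, WT in blue (n = 5) and Het in red (n = 6), with the mean and SD in black and WT replicates 1 and 5 numbered. Insulin falls from 39.3% to 31.6% and Gcg rises from 3.53% to 8.51% on average, while the mitochondrial share is high in WT replicates 1 and 5.

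The G-protein-coupled receptors listed for islets, which are not all of beta cells, were split. Of 33 tested receptors of 40 listed, 12 rose and 10 fell, against 26.4% and 11.6% of all genes. Glp1r was 292, 355, 300, 321 and 203 TPM in WT and between 108 and 188 TPM, with a median of 163, in Het (-0.89, SE 0.14, adjusted p = 4.62e-05). Gipr, the receptor of the other incretin, GIP, was 619, 315, 354, 470 and 411 TPM in WT and between 107 and 203 TPM, with a median of 147, in Het (-1.55, SE 0.16, adjusted p = 2.76e-07). Together with Gcgr, all 3 receptors of the glucagon family named here were lower in every Het library than in any WT library. The short-chain fatty acid receptors Ffar2 (49.1 ± 11.5 to 18.5 ± 2.05 TPM) and Ffar3 (41.9 ± 10.3 to 12.8 ± 1.38 TPM) fell by 1.34 and 1.61.

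Receptors that rose included Oxtr, the oxytocin receptor, which was 20.3, 16.7, 10.9, 11 and 6.64 TPM in WT and between 38.4 and 57.7 TPM, with a median of 49.0, in Het (1.89, SE 0.20, adjusted p = 4.70e-07). Mc5r, a melanocortin receptor, went from 0.145 ± 0.103 to 2.64 ± 1.15 TPM, and Gprc5b, an orphan receptor, from 4.16 ± 0.357 to 8.89 ± 0.931 TPM. Sstr2, a somatostatin receptor also listed among the alpha-cell markers, rose from 3.39 ± 1.13 to 7.4 ± 2.21 TPM (0.93). It was at 0.83 (adjusted p = 0.059) with the acinar score. Ghsr, the ghrelin receptor of delta cells, rose from 1.40 ± 0.616 to 4.83 ± 0.701 TPM, and is itself among the 5 of 6 delta-cell markers that rose. How far the number of cells of each type enters these values was not tested. Among regulators of G-protein signalling, 3 of 13 tested rose and 3 fell. Next to Rgs16, Rgs11 fell from 163 ± 42.8 to 91.2 ± 7.49 TPM, and Rgs4 rose from 56.3 ± 16.8 to 128 ± 27.6 TPM. Rgs3 fell by 0.50, and Rgs17 and Rgs7 rose by 0.72 and 0.36. Rgs7 was at 0.30 (adjusted p = 0.0543) with the acinar score, and with median-of-ratios scaling the list split into 3 and 5.

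**Figure D4:**
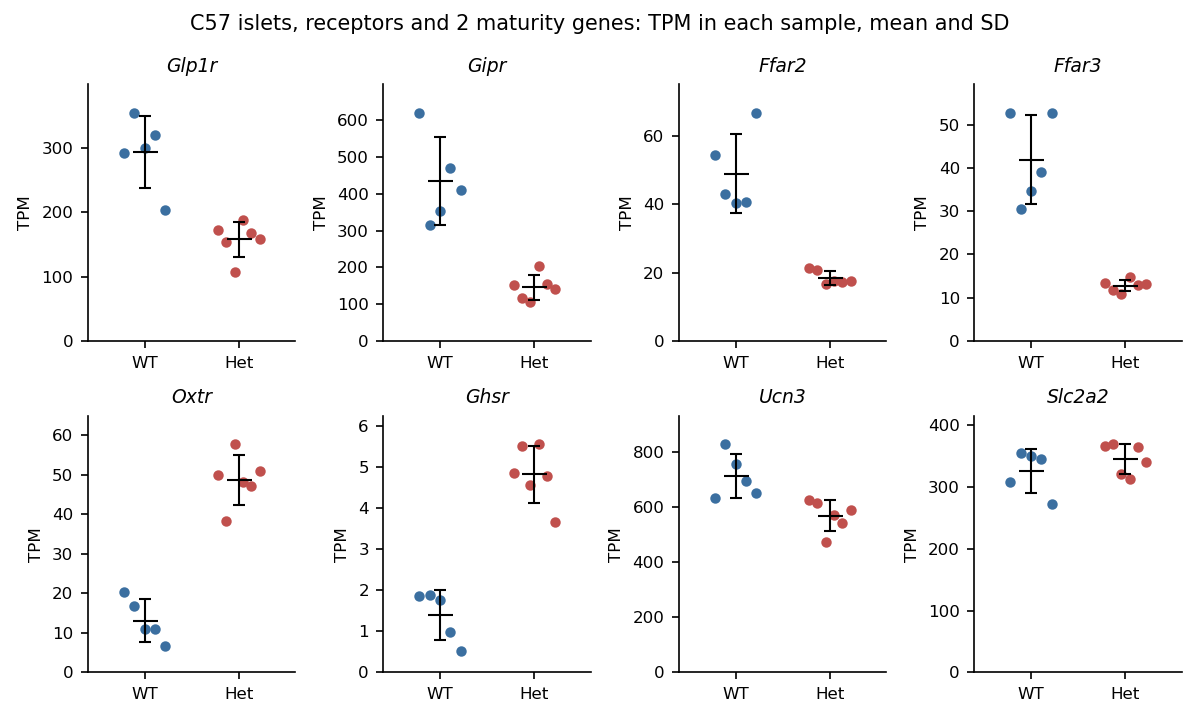
TPM (vertical axis, from 0) of 6 receptors, Ucn3 and Slc2a2 in each C57 library, WT in blue (n = 5) and Het in red (n = 6), with the mean and SD in black. Glp1r, Gipr, Ffar2 and Ffar3 are lower and Oxtr and Ghsr higher in every Het library. Ucn3 is also lower in every Het library, by a small margin and without a call, whereas Slc2a2 overlaps between the groups.

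Ion channels of excitable cells changed in both directions. Of 29 tested potassium channel genes of 38 listed, 12 rose and 3 fell, with a median of 0.25. The leak channels Kcnk1 (21.3 ± 4.76 to 41.9 ± 2.49 TPM) and Kcnk3 (10.5 ± 2.59 to 20.8 ± 3.13 TPM) rose by 0.97 and 0.94. The decreases, beside Kcnj12, were Kcng3, a modifier subunit, at -1.04 (SE 0.20) and Kcnip1, a channel-interacting protein, at -0.63 (SE 0.12). Of 30 tested genes for calcium, sodium and Trp channels, 6 rose and 4 fell, and with median-of-ratios scaling 5 rose and 8 fell. The calcium-activated cation channel Trpm5 fell from 67.5 ± 5.45 to 26.0 ± 5.06 TPM (-1.36, SE 0.20), and Trpm2 from 5.72 ± 1.88 to 1.49 ± 0.301 TPM (-1.40, SE 0.15). The sodium channel subunit Scn3b rose by 0.76, and the calcium channel Cacna1h rose by 0.66. Cacna2d2, an auxiliary calcium channel subunit, rose by 0.62 and was at 0.53 (adjusted p = 0.0749) with the acinar score. The sodium channel Scn9a was called at 0.45 but was at 0.34 (adjusted p = 0.106) without WT replicates 1 and 5. Cacna1a fell by 0.58 (adjusted p = 0.0312) and was at -0.54 (adjusted p = 0.102) without WT replicates 1 and 5.

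Of 45 tested genes of granule docking and exocytosis, 14 rose and 3 fell, with a median of 0.16, near the shares over all genes, and 12 rose and 6 fell with median-of-ratios scaling. The calcium sensor Doc2b rose from 3.21 ± 1.21 to 8.34 ± 0.877 TPM (1.19, SE 0.15), and Sytl5, a Rab27 effector, from 12.8 ± 4.94 to 26.0 ± 3.10 TPM (1.08, SE 0.24). Stxbp5l rose by 0.86 and the granule membrane protein Ptprn2 by 0.77, the latter at 0.39 (adjusted p = 0.0357) without WT replicates 1 and 5. The decreases were Rab3b at -0.43, and Stx4a and Stxbp2 at -0.31 each, and without WT replicates 1 and 5 they were at -0.43 (adjusted p = 0.0665), -0.17 (adjusted p = 0.144) and -0.19 (adjusted p = 0.166). Of 12 tested monoamine genes 5 rose and 2 fell, Th among the latter. Tph1, the enzyme that starts serotonin synthesis, was 0.149, 0, 0.0872, 0.0387 and 0.00797 TPM in WT and between 0.396 and 3.17 TPM in Het (1.26, adjusted p = 0.0123). It was at 1.28 (adjusted p = 0.0561) without WT replicates 1 and 5. Fev, a serotonergic transcription factor, rose by 0.73. Among 18 tested neuropeptide genes, 4 rose and 5 fell. Npy rose from 54.7 ± 44.8 to 158 ± 46.8 TPM (1.80, SE 0.48) with overlapping groups, and Gal, galanin, from 0.801 ± 0.490 to 3.35 ± 1.48 TPM. Crhbp, the binding protein of corticotropin-releasing hormone, fell from 1.78 ± 0.89 to 0.205 ± 0.208 TPM without overlap, and the bombesin-like peptide gene Nmb fell by 0.86. The calls of Pthlh (0.53), Nucb2 (0.32) and Trh (-0.39) were lost without WT replicates 1 and 5, at 0.36 (adjusted p = 0.237), 0.27 (adjusted p = 0.22) and -0.20 (adjusted p = 0.316).

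In glucose metabolism, 9 of 30 tested genes rose and 3 fell, near the shares over all genes. Pklr, the liver-type pyruvate kinase and a known ChREBP target, fell from 15.8 ± 3.74 to 10.1 ± 1.39 TPM (-0.58, SE 0.14). Me1, the cytosolic malic enzyme, rose from 8.49 ± 1.31 to 19.3 ± 2.53 TPM (1.10, SE 0.12). The mitochondrial enzymes Glud1 and Cs rose by 0.72 and 0.55, and the glycolytic enzyme Pgam1 by 0.55, the last at 0.35 (adjusted p = 0.00504) without WT replicates 1 and 5. Ldhb, a lactate dehydrogenase, was called at -0.46 and stood at -0.41 (adjusted p = 0.0947) without WT replicates 1 and 5. Txnip, another ChREBP target, fell by 0.52 (adjusted p = 0.0331) but stood at -0.18 (adjusted p = 0.496) without WT replicates 1 and 5, in which it was 1859 and 1424 TPM.

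Of 28 tested genes of ATF4 and the integrated stress response, 17 rose and 1 fell, with a median of 0.52, against 26.4% and 11.6% over all genes. Leaving out WT replicates 1 and 5, 15 rose and 0 fell, against 15.5% and 5.61%. Phgdh, which opens serine synthesis, was 5.18, 6.68, 6.11, 7.68 and 6.41 TPM in WT and between 18.3 and 36.3 TPM, with a median of 34.7, in Het (2.12, SE 0.19, adjusted p = 4.59e-08). Asns, asparagine synthetase, rose from 42.0 ± 5.94 to 79.8 ± 10.1 TPM (0.91, SE 0.13), Eif4ebp1, a brake on translation initiation, from 5.96 ± 0.696 to 14.5 ± 2.50 TPM (1.14), and the pseudokinase Trib3 from 3.43 ± 0.935 to 8.14 ± 2.04 TPM (1.04). Trib3 was at 0.73 (adjusted p = 0.0511) with the acinar score. Ddit4, an inhibitor of mTORC1, was the gene that fell (-0.62), and it was at -0.54 (adjusted p = 0.182) without WT replicates 1 and 5. Chac1, which breaks down glutathione, rose by 1.2, and was at 0.94 (adjusted p = 0.11) without WT replicates 1 and 5. Ddit3, the gene of the stress factor CHOP, was 79.9 ± 24.4 TPM in WT and 79.6 ± 26.5 in Het (-0.03, adjusted p = 0.94). Of 24 tested amino acid transporters of 30 listed, 15 rose and 1 fell, with a median of 0.43, led by Slc38a5, followed by Slc1a4 at 0.85, Slc7a1 at 0.76 and Slc6a17 at 0.73. The gene that fell was Slc36a1 (-0.31). It was at -0.29 (adjusted p = 0.097) with the acinar score, and at -0.24 without WT replicate 1 (adjusted p = 0.057) or WT replicate 4 (adjusted p = 0.0558).

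Of 38 genes for chaperones and folding in the endoplasmic reticulum, 17 rose and 0 fell, with a median of 0.23, against 26.4% and 11.6% over all genes. With the other scalings 10 to 12 rose and 1 fell, and 9 rose without WT replicates 1 and 5. Ero1a, an oxidase of disulfide formation, rose from 15.3 ± 3.67 to 30.3 ± 3.58 TPM (0.96, SE 0.14), and Ern1, the stress sensor IRE1, from 40.2 ± 10.6 to 77.4 ± 11.3 TPM (0.96, SE 0.16). Ssr3 and Dnajc3 rose by 0.64 and 0.62, and Dnajc3 was at 0.41 (adjusted p = 0.0485) without WT replicates 1 and 5. The co-chaperone Dnajb9 rose by 0.62 and was at 0.39 (adjusted p = 0.0551) without WT replicates 1 and 5. The main chaperone gene Hspa5 was 1131 ± 327 TPM in WT and 1230 ± 137 in Het (0.16, adjusted p = 0.526).

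Among 24 tested cyclin-dependent kinase inhibitors and p53 targets, 7 rose and 4 fell, with a median of 0.12. Cdkn1a, the gene of p21, was 30.4, 30.9, 23.5, 36.3 and 28 TPM in WT and between 49.3 and 63.6 TPM, with a median of 56.3, in Het (0.91, SE 0.15, adjusted p = 9.07e-05). Cdkn2b, the gene of p15, rose from 12.2 ± 1.93 to 22.6 ± 2.13 TPM (0.85, SE 0.11), Ccng1 by 0.88 and the nuclease gene Aen by 0.67. Neither Cdkn1a nor Cdkn2b overlapped between the groups. Cdkn2a, the gene of p16 and p19, was 1.14 ± 0.314 TPM in WT and 1.39 ± 0.395 in Het (0.15, adjusted p = 0.39), and the apoptosis genes Bbc3 and Bax fell by 0.70 and 0.49. The other genes that fell were Pmaip1 (-0.48) and Hmgb2 (-0.42), at -0.39 (adjusted p = 0.067) and -0.40 (adjusted p = 0.0802) without WT replicates 1 and 5. Of 24 tested secreted factors associated with senescence, 1 rose and 0 fell, with a median of -0.03. The gene that rose was Timp2 (0.43), and it was at 0.34 (adjusted p = 0.0653) with median-of-ratios scaling and at 0.36 (adjusted p = 0.0834) without WT replicate 3. Its call was also lost without WT replicate 2 or 4 or Het replicate 2 or 5 (0.38 to 0.41, adjusted p = 0.0601 to 0.0698). Of 33 proliferation genes, 5 rose and 2 fell. Cdk4, the kinase partner of D cyclins, was 126.4, 91.6, 99.8, 112.3 and 115.5 TPM in WT and between 74.5 and 82 TPM in Het, without overlap (-0.49, SE 0.07, adjusted p = 1.56e-05). Its relative Cdk6 rose from 0.564 ± 0.187 to 1.12 ± 0.135 TPM (0.44). The replication genes Mcm2 (0.58) and Mcm4 (0.56) were at 0.44 (adjusted p = 0.0526) and 0.37 (adjusted p = 0.321) without WT replicates 1 and 5, and Mybl2 (-0.31) was at -0.23 (adjusted p = 0.2).

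Of 17 tested genes of endocrine progenitors 7 rose and 3 fell, against 26.4% and 11.6% over all genes. Cryba2, a crystallin gene found in endocrine precursors, was 155, 78.4, 76.9, 71.7 and 110 TPM in WT and between 307 and 422 TPM, with a median of 364, in Het (1.93, SE 0.21, adjusted p = 6.18e-07). Neurog3, the factor that starts endocrine fate, rose from 6.32 ± 2.20 to 9.80 ± 2.28 TPM with overlap (0.59, adjusted p = 0.0193). It was at 0.42 (adjusted p = 0.0746) without WT replicate 4 and at 0.50 (adjusted p = 0.053) without Het replicate 2. Aldh1a3, often used to mark dedifferentiated beta cells, was 0.499 ± 0.156 TPM in WT and 0.485 ± 0.174 in Het (-0.02, adjusted p = 0.981). The tetraspanin Cd81 rose by 0.60. The corepressor Rcor2 was called at -0.41 and was at -0.35 (adjusted p = 0.105) without WT replicates 1 and 5. Hes1 and Sox4 fell by 0.86 and 0.80, and were at -0.44 (adjusted p = 0.0412) and -0.55 (adjusted p = 0.145) without WT replicates 1 and 5. Of 18 tested genes listed as disallowed in mature beta cells, 1 rose, Oat (ornithine aminotransferase, 0.89), and 1 fell, Txnip. Txnip was not silent in these islets, at 1204 ± 428 TPM in WT.

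Other lists held single large changes. Among 24 tested imprinted genes, 9 rose and 5 fell. Beside Nnat, Rasgrf1 fell from 41.8 ± 6.44 to 21.3 ± 5.77 TPM, and Grb10, an adaptor that binds the insulin receptor, rose from 17.9 ± 4.38 to 38.0 ± 3.30 TPM. Mest rose by 1.06, Peg10 from 5.18 ± 3.69 to 12.5 ± 2.25 TPM (1.30), and Igf2r, which clears IGF2, by 0.60. The noncoding RNAs Meg3 (-0.57) and Kcnq1ot1 (-0.47) were at -0.31 (adjusted p = 0.242) and -0.26 (adjusted p = 0.168) without WT replicates 1 and 5. Insrr, a receptor of the insulin receptor family, fell from 531 ± 139 to 305 ± 44.9 TPM (-0.77, SE 0.16). Of 15 tested genes of the insulin-like growth factor family 2 rose and 2 fell, and Igf1r fell by 0.40. Igfbpl1, an IGF-binding protein relative, was listed at 0 in 4 WT libraries and at 0.0147 TPM in replicate 4, and lay between 0.729 and 2.13 TPM, with a median of 1.74, in Het (1.31, adjusted p = 0.000399). Of 19 clock genes 3 rose and 2 fell. Clock rose by 0.52, and the calls of Cry1 (0.59) and Hlf (0.54) were lost without WT replicates 1 and 5, at 0.52 (adjusted p = 0.0851) and 0.46 (adjusted p = 0.0518). The clock genes Nr1d1 and Dbp fell by 1.02 and 0.89. In the nuclear genes of oxidative phosphorylation, 23 of 84 tested rose and 6 fell, but 9 rose and 11 fell with median-of-ratios scaling. Of 83 tested ribosomal protein genes, 35 rose and 1 fell, and with that scaling 11 and 2. The counts were 21 and 4 with quantile normalization and 13 and 4 with the total without abundant genes. Without WT replicates 1 and 5 they were 38 and 0, against 15.5% and 5.61% of all genes. For cholesterol synthesis 2 of 25 rose and 2 fell, and 1 and 7 with median-of-ratios scaling. Ebp rose by 0.43, while Tm7sf2, a sterol reductase, fell by 0.63. Idi1 was called at 0.49 but was at 0.11 (adjusted p = 0.645) without WT replicates 1 and 5.

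Of 26 tested genes of neural adhesion and synapses, 12 rose and 5 fell, with a median of 0.25. Beside Nrcam and Cntnap2, the NMDA receptor subunit Grin2c was 38.9, 16.6, 22.3, 23.6 and 31 TPM in WT and between 7.1 and 14.2 TPM in Het, without overlap (-1.37, SE 0.19, adjusted p = 1.37e-05), and Grin1, its obligate partner, fell by 0.67. The cadherin Cdh7 fell by 0.92. The adhesion genes Lrrtm2, Cntn3 and Cadm1 rose by 1.07, 1.01 and 0.86. Gfra3, the artemin receptor, was 9.06, 8.7, 6.16, 4.76 and 5.86 TPM in WT and between 26.4 and 34.8 TPM in Het (1.95, SE 0.22, adjusted p = 1.04e-06), also without overlap, and was the 1 of 12 neural and Schwann-cell markers that rose.

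Of 16 tested zinc transporters and metallothioneins 6 rose and 2 fell, and without WT replicates 1 and 5 these counts were 2 and 0. The zinc importer Slc39a10 rose by 0.62 and Slc30a9 by 0.38. Without those libraries the importer Slc39a6 (0.43) was at 0.28 (adjusted p = 0.063), the exporter Slc30a1 (0.33) at 0.25 (adjusted p = 0.215), and the metallothioneins Mt1 (-0.66) and Mt2 (-0.71) at -0.38 (adjusted p = 0.202) and -0.39 (adjusted p = 0.256). Of 22 immediate early genes 0 rose and 2 fell, Nr4a1 (-0.80) and Ier3 (-0.55), at -0.68 (adjusted p = 0.0867) and -0.23 (adjusted p = 0.417) without them.

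Of 15 tested complement genes 4 rose and 2 fell. With C8b, the inhibitors Serping1 (0.73) and Cd55 (0.48) rose, and Cfi (0.82) was at 0.71 (adjusted p = 0.0934) without WT replicates 1 and 5. C1qa and C1qb fell by 0.80 and 0.48, and C1qb was at -0.39 (adjusted p = 0.141) without them. Of 22 interferon-stimulated genes 0 rose and 3 fell, and 7 fell with median-of-ratios scaling. Usp18 fell by 0.37, and was at -0.34 without WT replicate 4 (adjusted p = 0.0577) or WT replicate 5 (adjusted p = 0.0622). Stat2 (-0.39) and Ifi27 (-0.39) were at -0.34 (adjusted p = 0.0915) and -0.30 (adjusted p = 0.0799) without the 2 libraries. Of 19 genes of antigen presentation 1 fell, Psmb9 (-0.39), which was at -0.24 (adjusted p = 0.179) without them, and 6 fell with median-of-ratios scaling. Of 18 collagens 1 rose, Col27a1, from 13.5 ± 4.61 to 26.3 ± 4.26 TPM (0.96). No call was made among the 5 tested Reg-family genes.

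The balance of other lists also moved with median-of-ratios scaling. It was 7 higher and 4 lower for glucose metabolism, 11 and 5 for potassium channels, 2 and 5 for neuropeptides, 4 and 3 for zinc genes, and 0 and 2 for senescence-associated factors. Collagens and neural and Schwann-cell markers each had 1 and 1. With quantile normalization monoamine genes had 5 and 3, clock genes 3 and 3, complement genes 4 and 3 and proliferation genes 3 and 3.

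**Figure D5:**
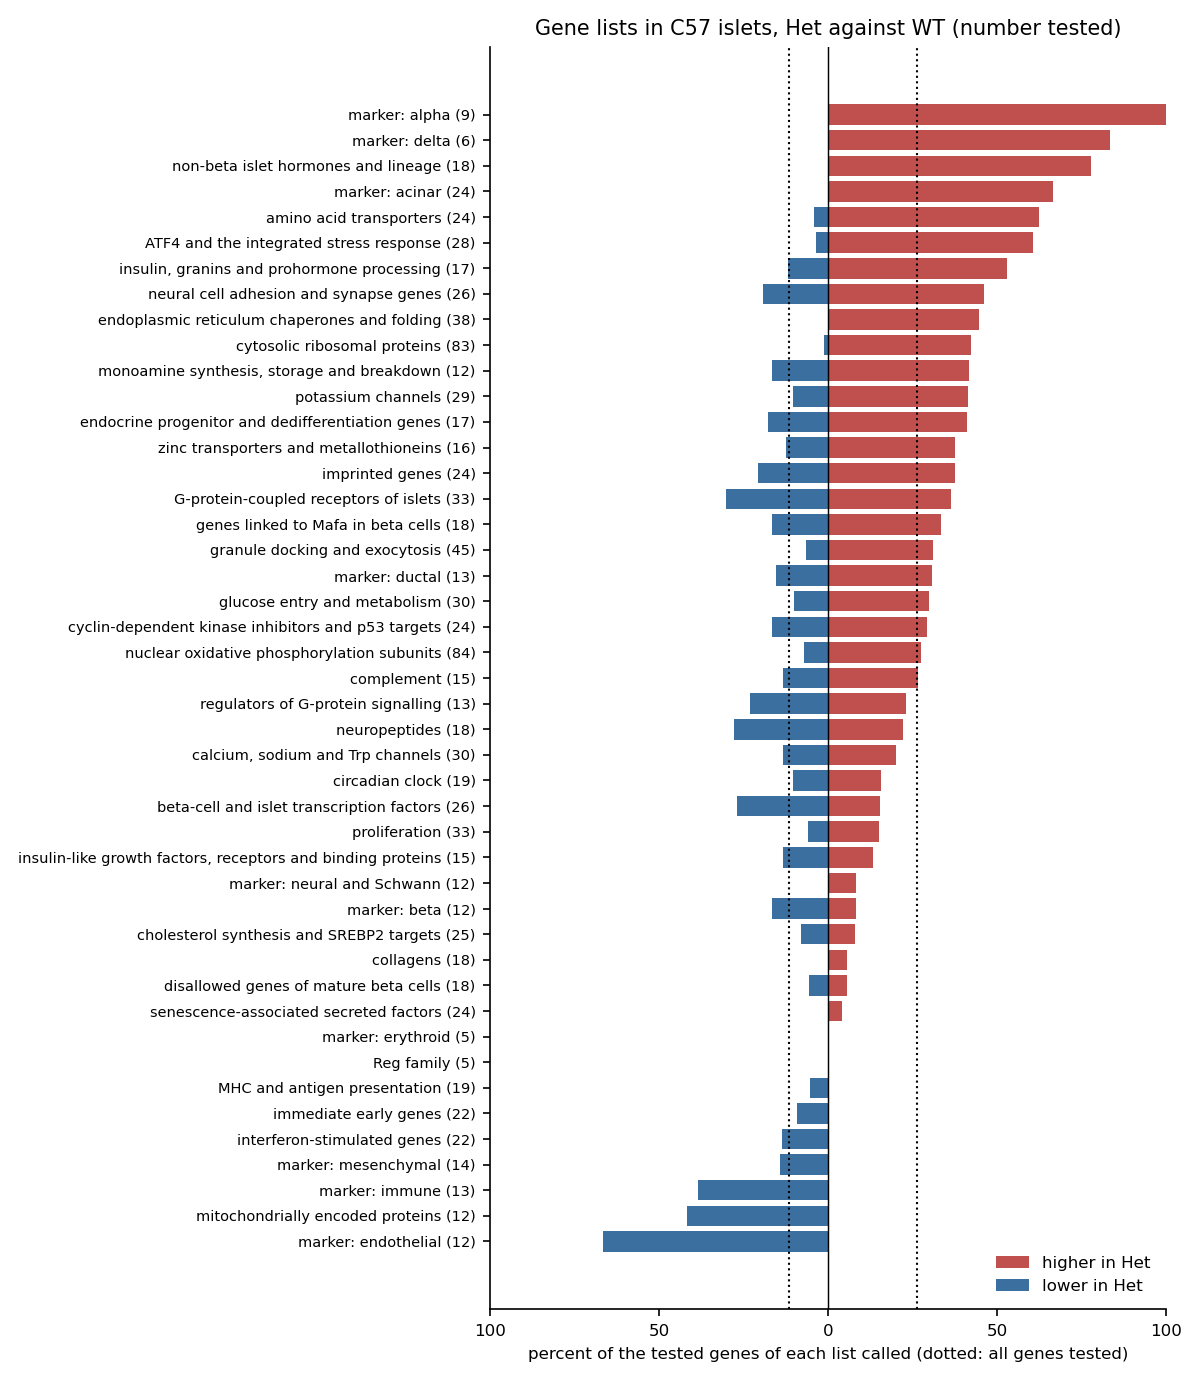
Percent of the tested genes of each list called higher (red, right) or lower (blue, left) in C57 Het islets, with the number tested in parentheses; the dotted lines are the percentages over all genes tested, 26.4% and 11.6%, and lists with under 5 tested genes are not drawn. Alpha, delta and acinar markers, non-beta islet hormones and lineage genes, amino acid transporters and stress-response genes lie farthest to the right, and endothelial markers farthest to the left.

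Of 24 tested acinar markers, 16 rose and 0 fell, with a median of 1.17. Their share of TPM rose from 0.0512% ± 0.0116 to 0.139% ± 0.0850 (exact two-sided permutation p = 0.0325), with the highest Het library at 0.272% and the lowest, at 0.0473%, within the range of WT. That difference did not pass the threshold without any single WT library (exact permutation test, adjusted p = 0.0619 to 0.081). The digestive enzyme genes Ctrb1, Cpa1, Ctrl and Cela3b rose by 1.31, 1.42, 1.29 and 1.26. Ctrb1 was at 1.37 (adjusted p = 0.0581) without WT replicates 1 and 5. With the acinar score the 4 genes were at -0.02 (adjusted p = 0.951), 0.21 (adjusted p = 0.283), 0.19 (adjusted p = 0.181) and 0.04 (adjusted p = 0.804). These 4 genes are among the markers that make up the score, so the loss of their change was built in. With the acinar score as a covariate 3672 genes were called, among them all 28 named above. Of the 198 named genes called, 46 lost their call with it. Beyond those given with a value, they were Glis3, G6pc2, Ldhb, Cacna1a, Scn9a, Stx4a, Stxbp2, Tph1, Trh, Pthlh, Nucb2, Ddit4, Chac1, Dnajb9, Txnip, Meg3, Timp2, Hmgb2, Mcm4, Mybl2, Rcor2, Cry1, Hlf, Idi1, Slc30a1, Nr4a1, Ier3, Stat2, Anxa3, Des and Robo4. Endothelial markers fell in 8 of 12 tested and 0 rose, and without WT replicates 1 and 5 that count was 0. In those 2 libraries the endothelial gene Emcn was 33.0 and 57.6 TPM against 20.4, 21.2 and 26.2 TPM in the other WT, and its change was -0.23 (adjusted p = 0.227) without them. The same held for Eng (-0.56 with all libraries, -0.25 and adjusted p = 0.278 without them), Robo4 (-0.66, then -0.24 and 0.32) and Esam (-0.55, then -0.20 and 0.212). The mitochondrially encoded genes behaved alike: 5 of 12 tested fell, and 0 did without these libraries. Immune markers fell in 5 of 13 tested and 0 rose, and in 3 without those libraries. The B-cell gene Cd79a fell from 11.2 ± 1.90 to 4.27 ± 0.951 TPM, the Fc receptor chain Fcer1g from 14.6 ± 0.752 to 7.35 ± 1.52 TPM and the macrophage complement gene C1qa from 178 ± 19 to 103 ± 17.6 TPM, each without overlap. Of 13 tested ductal markers 4 rose and 2 fell, but 3 rose and 5 fell with quantile normalization and with the total without abundant genes. Spp1, the gene of osteopontin, rose from 30.8 ± 12.5 to 101.1 ± 44.1 TPM (1.67, SE 0.45), Sox9 by 0.59 and Epcam by 0.55, and Cldn3 fell by 0.45. Sox9 was at 0.69 (adjusted p = 0.0563) with the acinar score, 0.48 (adjusted p = 0.0833) without WT replicate 4 and 0.54 (adjusted p = 0.0545) without Het replicate 3. Tff2 (0.77) was at 0.91 (adjusted p = 0.0753) and Anxa3 (-0.63) at -0.15 (adjusted p = 0.543) without WT replicates 1 and 5, and Tff2 was at -0.02 (adjusted p = 0.955) with the acinar score. Of 14 mesenchymal markers 2 fell, Acta2 (-0.93) and Des (-0.63), at -0.60 (adjusted p = 0.0865) and -0.34 (adjusted p = 0.196) without them. Among 5 tested erythroid markers none was called. The part of these cells in the results above was not tested.

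Most large C57 changes were also present on the Mixed background. Of the 550 genes that changed by at least 1, 420 (76.4%) were called in the same direction there, where 44.1% of all genes were called in either direction, and so were 25 of the 28 named genes. The difference between backgrounds was tested by an interaction, called for 1233 genes (7.36%), for 82 of the 550 (14.9%) and for 10 of the 28. The Meltf change of 4.12 compared with 4.08 in Mixed (interaction 0.04, SE 0.23, adjusted p = 0.94), and Mafa by -1.91 and -1.98 (interaction 0.07, adjusted p = 0.886). Chrna4 rose by 3.03 in C57 and 1.0 in Mixed (difference 2.03, interaction adjusted p = 0.0017), and Nrcam by 3.38 and 2.05 (1.33, adjusted p = 0.0014). Pdyn stood at -2.80 in C57 against 0.43 in Mixed (interaction -3.23, SE 0.55, adjusted p = 0.00268).

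A few genes moved in opposite directions. Il6st, the shared receptor chain gp130, rose from 16.1 ± 2.21 to 33.1 ± 4.39 TPM in C57 (1.0, SE 0.16), against -0.69 in Mixed (interaction 1.69, adjusted p = 0.000368). Tifa, an adaptor of innate signalling, rose by 0.83 in C57 against -0.92 in Mixed (interaction 1.74), and its C57 change was 0.64 (adjusted p = 0.0818) without WT replicates 1 and 5. For several genes of mature beta cells the C57 change was smaller. Glp1r fell by 0.89 in C57 against 2.24 in Mixed (interaction 1.35, adjusted p = 0.000512), and Slc2a2 was at 0.09 against -0.92 (interaction 1.01, adjusted p = 0.0027). Ucn3 was at -0.32 against -1.50 (interaction 1.18, adjusted p = 0.00342). Aldh1a3, which marks dedifferentiated rather than mature beta cells, was at -0.02 against 1.98 (interaction -2.0, adjusted p = 0.0407). Its C57 means were low, at 0.499 TPM in WT and 0.485 TPM in Het. Of the genes with the largest named interactions, 4 were not called in C57: Rpl26, a ribosomal protein gene, was at 0.17 (interaction 1.68), Matn2, a matrix protein gene, at -0.52 (-2.05), Col1a1, type I collagen, at 0.15 (-2.04) and Dapl1 at 0.52 (-2.02). The interaction was called for 469 genes without WT replicates 1 and 5.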

How the data were processed

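The authors deposited 1 table of TPM, with 57010 Ensembl gene IDs and a column per library, each adding up to 1000000 TPM per the file headers and values. Per the submitters' processing notes, STAR 2.7.10b, MultiQC 1.7 and the build mm39 were used; their roles, the counting tool and the annotation are not given in the sources used here. TPM keeps no depth, so no intervals or detection floors were computed. Where 150 symbols repeated, the row of highest mean was used. Genes with at least 1 TPM in at least 5 of the 22 samples (16756) were analysed as log2(TPM + 1), which understates changes of low genes, with limma 3.58.1 in R 4.3.3 (lmFit, eBayes with trend) on the 4 group means of all samples (18 residual degrees of freedom) and Benjamini-Hochberg adjustment. All adjusted p-values of genes come from this fit, two-sided. Shares were compared by exact permutation. Each sample is 1 mouse.

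Named genes were Mafa, the 14 largest increases and 14 largest decreases with separate groups and a mean of at least 5 TPM in the higher group, the 4 largest interactions each way, up to 4 called genes each way per list, and a set list of islet genes. Genes and 46 lists were chosen with earlier results of these data known, and no list was tested. In simulated data for this comparison, over 16756 genes, 67 genes changed by 0.5, 67 by 1 and 66 by 2. Of these, 64.2%, 94% and 100% were recovered, in that order. There 181 genes were called, and 4.97% of these calls were false. Far more genes were called in the real data, so these rates hold for the simulated setting only. They are not estimates for the calls reported here. Sequences came from GENCODE M21 and RefSeq on GRCm38 and were not joined to mm39 coordinates. Alternatives were another pseudocount, filter, scaling, sample set, covariate or weighting, and leaving out libraries. Some genes that the rule names are not reported here.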

Additional observations from a re-analysis of the deposited data

Results flagged for a closer look

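Among the 215 named genes and the transcript classes, 440 groups of 5 or 6 libraries were checked for a library far from the rest of its group, and 34 (7.73%) held one. The limit used flags about 1 in 20 groups by chance, and these groups share the same 11 libraries. Of these, WT replicate 1 or 5 was the distant library for 15. WT replicate 1 was high for Msln (275.2 TPM), Fev (22.2 TPM), Ddit4 (475.1 TPM), Rgs17 (7.13 TPM) and Pmaip1 (2.39 TPM), and low for Ins2 (220529.5 TPM). In the same library Ins1 and Ins2 together took 34.6% of TPM, the lowest WT share, and the ratio of Ins1 to Ins2 was 0.569, the highest. WT replicate 5 was high for Col1a1 (19.9 TPM), Acta2 (29.1 TPM) and Des (8.5 TPM), which are expressed in mesenchymal cells. It was low for Arhgap36 (4.1 TPM), Sytl5 (4.1 TPM), Igf2r (17.7 TPM) and Rgs7 (5 TPM). The other distant WT values were Ceacam10 in replicate 2 (4.96 TPM), Bach2 in replicate 3 (0.312 TPM) and Igfbpl1 in replicate 4 (0.0147 TPM), the one WT library where it was not listed at 0.

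In Het, replicate 2 lay apart for Mnx1 (23.9 TPM), Pdx1 (145.1 TPM), Pcsk2 (1693 TPM), Pam (202.4 TPM), Pgam1 (76.1 TPM) and Mcm4 (18.6 TPM). Replicate 3 did so for Kcng3 (0.412 TPM), Ttr (7867.6 TPM) and Cntn3 (2.81 TPM), replicate 4 for Mlxipl (154.1 TPM), Phgdh (18.3 TPM) and Hlf (4.3 TPM), replicate 5 for S100z (5.3 TPM), Ppy (29599.9 TPM) and Crhbp (0.611 TPM), and replicate 6 for Doc2b (6.64 TPM).

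The change differed between the backgrounds, by the interaction term at an adjusted p under 0.05, for 52 of the 215 named genes. Over all genes tested, the interaction was called for 1233 genes, and for 469 without both C57 WT libraries of high mitochondrial share. Interactions of single genes without those libraries are not given here, so the 52 may not be equally firm. Values are the C57 change minus the Mixed change on the log2 scale, with all libraries. Among genes with the largest C57 changes these were Chrna4 (2.03), Ceacam10 (1.56), Arhgap36 (1.42), Nrcam (1.33), Ccdc141 (1.11), Nnat (-1.13), C8b (-1.2), Rgs16 (-1.61), Slc28a2b (-1.89) and Pdyn (-3.23). The genes named for their interaction were Tifa (1.74), Il6st (1.69), Rpl26 (1.68), Dapl1 (-2.02), Col1a1 (-2.04) and Matn2 (-2.05). Among genes of beta cells and their signalling the difference was positive for Glp1r (1.35), Ucn3 (1.18), Trpm5 (1.1), Slc2a2 (1.01), Pcx (0.83), Insrr (0.81), Slc30a8 (0.79) and Maob (0.62). It was negative for the exocytosis genes Rab3b (-0.74) and Stx4a (-0.41).

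In stress and growth genes the differences were Ddit3 (1.36), Mcm4 (1.09), Asns (0.72), Ero1a (0.7) and Clock (0.52). In progenitor and other endocrine genes they were Gc (-0.88), Ttr (-0.93), Rbp4 (-1.0), Sox4 (-1.34), Txnip (-1.52), Cryba2 (-1.58) and Aldh1a3 (-2.0). Neural and peptide genes gave Cntn3 (1.23), Lrrtm2 (1.06), Trh (0.77), Grin1 (0.53), Cadm1 (-0.7), Crhbp (-1.04) and Igfbpl1 (-1.49). Genes of immune, ductal and mesenchymal cells and of the matrix gave Serping1 (-0.58), Ifi27 (-0.66), Timp2 (-0.72), Cldn3 (-1.04), Acta2 (-1.19), C1qb (-1.23) and C1qa (-1.28).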

How the results depend on the processing

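Mafa and the 28 genes of largest change kept their direction under the alternatives, and their call in all but 1 of 611 gene-by-alternative tests (S100z with a pseudocount of 0.1). The 6362 calls became 3672 (2525 higher, 1147 lower) with the acinar score, 3532 (2592 and 940) without WT replicates 1 and 5, and 550 (261 and 289) with a change of at least 1 required. Lower calls were 1084 at a mean of at least 5 TPM, 3063 with median-of-ratios scaling and 3183 with the total without abundant genes. The interaction was called for 2628 genes with sample weights, 469 without WT replicates 1 and 5 and 714 without a filter. Leaving out 1 library gave 5131 to 6814 calls, 3509 to 4749 higher, 1380 to 2298 lower and 831 to 1775 interactions, and a Mafa change of -1.99 to -1.81. Of 214 named genes other than Mafa, 52 kept their direction but lost their call, 1 gained one and 4 turned sign without WT replicates 1 and 5, and 44, 1 and 2 did so with the acinar score. With 1 library left out, 34 of the 198 named genes called lost their call in at least 1 case, 22 of them without a library other than WT 1 or 5. Median-of-ratios scaling, the total without abundant genes and quantile normalization ended 9, 8 and 7 calls, those of Ins1, Timp2, G6pc2, Pthlh, Mcm4, Tff2, Nucb2, Slc30a1 and Idi1. Signs turned only for Slc2a2, Ddit3, Hspa5, Aldh1a3, Neurod1, Col1a1 and Iapp, none of them called, and for Ctrb1 (-0.017) and Tff2 (-0.023) with the acinar score. Ctrb1 is itself part of that score. Slc2a2 was -0.023 without WT replicates 1 and 5 and with quantile normalization, -0.0064 with median-of-ratios scaling and -0.025 with the total without abundant genes. Without those libraries Ddit3 was 0.19, Hspa5 -0.06 and Aldh1a3 0.003. With sample weights Ddit3 was 0.21 and Aldh1a3 0.037, and with quantile normalization Aldh1a3 was 0.022. With 1 library left out, Neurod1 ran from -0.12 to 0.025, Col1a1 from -0.037 to 0.42, Iapp from -0.17 to 0.04, Ddit3 from -0.16 to 0.15 and Aldh1a3 from -0.06 to 0.034. The acinar share difference was 0.0612 to 0.106 percentage points and lost significance without any 1 WT library (exact adjusted p = 0.0619 to 0.081), and the ribosomal share difference was 0.196 to 0.314 and lost it without WT replicate 4. Without WT replicates 1 and 5 the acinar difference was 0.0912 (exact adjusted p = 0.107) and the mitochondrial one -0.814 (exact adjusted p = 0.0571). The cause of these shifts was not tested, apart from the fewer samples or genes that some alternatives hold by construction. TPM keeps no depth, so what depth limits is unknown. No paired analysis was possible because the replicate numbers were given in library order and only name the samples.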

Other observations

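Genes beside Mafa on chromosome 15 were looked at after their values had been seen. Zc3h3, which encodes a zinc finger protein of RNA export, fell from 74.2 ± 14.5 to 27.8 ± 3.52 TPM (-1.37, SE 0.13, limma adjusted p = 6.63e-08), and its change on the Mixed background was -1.88. Gsdmd, the gene of gasdermin D, fell by 0.63 (adjusted p = 0.00171), with a Mixed change of -0.25. Gpihbp1 fell from 10.3 ± 6.03 to 4.73 ± 0.814 TPM (-0.84, adjusted p = 0.0116), with a Mixed change of -0.01. Both genes overlapped between the groups. Values of the genes beside Mafa without WT replicates 1 and 5 are not given here. Top1mt, Ly6h and Tigd5 rose by 0.42, 0.43 and 0.37 (adjusted p = 0.014, 0.0325 and 0.0132). Rhpn1 (-0.07), Zfp41 (0.05) and Naprt (0.09) were not called.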
